A study of Mus musculus with 6 samples.

Results

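The cytosolic ribosomal protein genes were examined in mouse hematopoietic stem cells with and without CD74. Members were taken by name: every gene called Rps or Rpl followed by a digit, together with Rpsa, Rplp0, Rplp1 and Rplp2, without the S6 kinase genes and without rows named as pseudogenes. In all, 89 genes of the 19846 in the table were members, and each of the 89 reached the mean normalized count of at least 10 that was asked of every gene tested. By name and annotation, 30 of them encode proteins of the small subunit and 46 proteins of the large subunit. A further 7 are paralogs of another member (Rpl3l, Rpl7l1, Rpl22l1, Rpl36al, Rpl39l, Rps27l and Rps27rt), 5 are copies that GENCODE annotates as pseudogenes (Rpl32l, Rpl37rt, Rps3a2, Rps3a3 and Rps4l), and 1, Rps19bp1, encodes a protein that binds Rps19 and is no part of the ribosome.

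The RNA came from CD34-/LSK cells, the stem cell gate of the bone marrow (lineage-negative, Sca-1+ and c-Kit+ cells that lack CD34), of untreated C57BL/6 mice of 6 to 8 weeks. The WT group had 3 libraries and the CD74-/- group, homozygous for the loss of Cd74, had 3; each library was made from 1000 sorted cells. The labels name 3 mice of each genotype, and each library was taken as 1 mouse. CD74 is the invariant chain of MHC class II and a receptor for the cytokine MIF, and the comparison asks how gene expression in the stem cells changes when it is lost. Cd74 itself, the check of the labels, was at 3287, 2459 and 3107 normalized counts in WT and at 46.0, 72.0 and 72.8 in CD74-/- libraries. The libraries held 14390534 to 16198678 reads in genes. The labelled cell type was checked with 12 stem cell markers, of which 12 were present and 0 were called between the genotypes. The list includes Cd34, although the gate takes cells without CD34, and Flt3 and Cd48, so it does not tell stem cells from progenitors. At an unadjusted limma p under 0.05, 2 of the 12 were higher in CD74-/- cells, or 16.7% beside 7.74% of all genes tested. The summed level of the 12 was 54647 to 63135 in WT and 61014 to 70016 in CD74-/- libraries. A normalized count is the number of reads in a gene after the authors had divided it by the size factor of the library.

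Ribosomal proteins coat the ribosomal RNA of the small subunit, which reads the mRNA, and of the large subunit, which joins the amino acids. Their genes are among the most transcribed genes of most cells, and the mRNAs start with a pyrimidine tract, the 5' TOP motif, through which mTOR and LARP1 control their translation together. Hematopoietic stem cells are known for a low rate of protein synthesis. Loss of 1 copy of several of these genes causes Diamond-Blackfan anaemia in people, and free RPL5 and RPL11 bind MDM2 and thereby raise p53. Ribosomal protein genes have many processed pseudogenes, so that short reads cannot always be placed on the parent gene.

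Rps3a1 encodes a protein of the small subunit that lies near the exit of the mRNA channel. The gene (ENSMUSG00000028081) is on the minus strand of GRCm38 at chr3:86137940-86142702 and hosts the small nucleolar RNA gene Snord73a. Its closest copies are Rps3a2, an annotated processed pseudogene at chr14:88123017-88123808, and Rps3a3, another at chr13:108670603-108671397. Over the 792 coding bases of Rps3a1, Rps3a2 differs at 4 bases and Rps3a3 at 9. Of the 928 words of 50 bases in the Rps3a1 mRNA, 269 (29%) occur in no GENCODE vM21 transcript of another gene. They make up bases 1 to 182, 324 to 398, 618 to 716, 744 to 803 and 880 to 977 of the mRNA. The longest stretch inside the coding sequence that is made of such words, bases 618 to 716 of the mRNA in exons 4 and 5 (chr3:86138573-86139118 with the intron between them, minus strand), is shown here with the same stretch of both copies, because reads can be told apart only by such bases. Capitals mark, in Rps3a1, the bases at which either copy differs and, in a copy, the bases that differ from Rps3a1.
Rps3a1: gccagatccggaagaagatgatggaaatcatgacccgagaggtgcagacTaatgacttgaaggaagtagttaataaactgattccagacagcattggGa
Rps3a2: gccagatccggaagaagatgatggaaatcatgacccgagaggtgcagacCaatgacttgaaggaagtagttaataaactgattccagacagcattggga
Rps3a3: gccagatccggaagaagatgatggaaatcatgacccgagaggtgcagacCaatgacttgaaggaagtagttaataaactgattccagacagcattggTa
The whole stretch holds 1 base that tells Rps3a1 from Rps3a2 and 2 that tell it from Rps3a3.

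The members also share letters in front of their genes. RefSeq promoters of GRCm38.p6, from 250 bases before to 50 after the annotated start, matched 67 of the 89 members by symbol. The letters CGGAAG, the core bound by ETS factors such as GABPA, stood on either strand in 44 of these 67 (65.7%) and in 18.8% of the promoters of all 27025 genes in the RefSeq promoter set. For comparison, 56.5% of 69 mitochondrial ribosomal protein genes held them. The letters CTTTCC, a pyrimidine run of the kind found in 5' TOP tracts, stood on the strand of the gene within the 100 bases around the start in 21 of 67 members (31.3%) and in 5.4% of that set. Rps3a1 held CGGAAG and not CTTTCC. Windows of 30 bases around CGGAAG, or its reverse complement CTTCCG, are printed for Rps3a1 and for the 5 members with the highest level per length that held it, with the motif in capitals and the sequence on the strand of the gene.
Rps3a1, chr3:86142659-86142688, minus strand: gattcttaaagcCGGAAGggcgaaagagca
Rpl4, chr9:64173316-64173345, plus strand: aggggcaggatgCGGAAGacgagtggaagg
Rpl41, chr10:128549152-128549181, minus strand: cacgggccggctCGGAAGtgacgacaccga
Rplp2, chr7:141447531-141447560, plus strand: ggaaatgtcttcCTTCCGgtgcaccctttt
Rpl37a, chr1:72711232-72711261, plus strand: gaggtcgcgtcaCTTCCGctcgccggtcta
Rps18, chr17:33955656-33955685, minus strand: acttatacgtcaCTTCCGctctctcttcca
These are matches of letters and not measured binding sites.

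Rps3a1 was lower in CD74-/- stem cells, and no other member passed the test. WT libraries held 26181, 18963 and 19310 normalized counts of Rps3a1, and CD74-/- libraries held 7388, 7729 and 8426. Every CD74-/- library was below every WT library, and the CD74-/- libraries lay close together while WT 1 stood above the other WT libraries. The means were 21485 ± 4071 (SD, n = 3) and 7848 ± 529 (SD, n = 3), so that the CD74-/- level was 0.365 of the WT level. The log2 fold change was -1.44 (SE 0.193, 95% interval -1.87 to -1.01, limma adjusted p = 0.0247). Over its 6 values, the exact permutation test (two-sided) gave p = 0.1, the smallest p that 3 libraries against 3 allow. Limma called 13 of 14892 genes, or 0.0873% of all genes tested, with 7 of them, 0.047%, lower and 6, 0.0403%, higher in CD74-/- cells. On the recovered reads, edgeR, DESeq2 and limma-voom called 0.083%, 0.756% and 0.0415% of their genes, and in each of them Rps3a1 was the member called. With any of WT 1, WT 2, WT 3, CD74-/- 1 or CD74-/- 2 left out, the adjusted p of Rps3a1 was 0.0674 to 0.24, while the log2 fold change stayed between -1.52 and -1.29. In bulk RNA of this kind, fewer cells of a type and less RNA per cell cannot be told apart.

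The lower level of Rps3a1 was not shared by the rest of the ribosome. The geometric mean of the other 88 members (of normalized count + 1) was 1613, 1429 and 1438 in WT and 1455, 1409 and 1563 in CD74-/- libraries, and the groups overlapped. Divided by that mean, Rps3a1 stood at 16.2, 13.3 and 13.4 in WT and at 5.08, 5.48 and 5.39 in CD74-/- libraries. The ratio was almost constant within CD74-/- and fell to 0.372 of WT. Scaled in this way, limma gave a log2 fold change of -1.42 (SE 0.179, adjusted p = 0.0212), with 0.0806% of all genes called. This call was lost with a replicate block (limma adjusted p = 0.08) and when any library other than CD74-/- 3 was left out (adjusted p 0.0711 to 0.289), while the log2 fold change stayed between -1.47 and -1.33. Rps3a1 made up 3.90%, 3.48% and 3.41% of the summed members in WT and 1.32%, 1.45% and 1.37% in CD74-/- libraries. By level per kb of mRNA it took place 13 of 89 in WT and place 29 in CD74-/- cells.

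**Figure D1:**
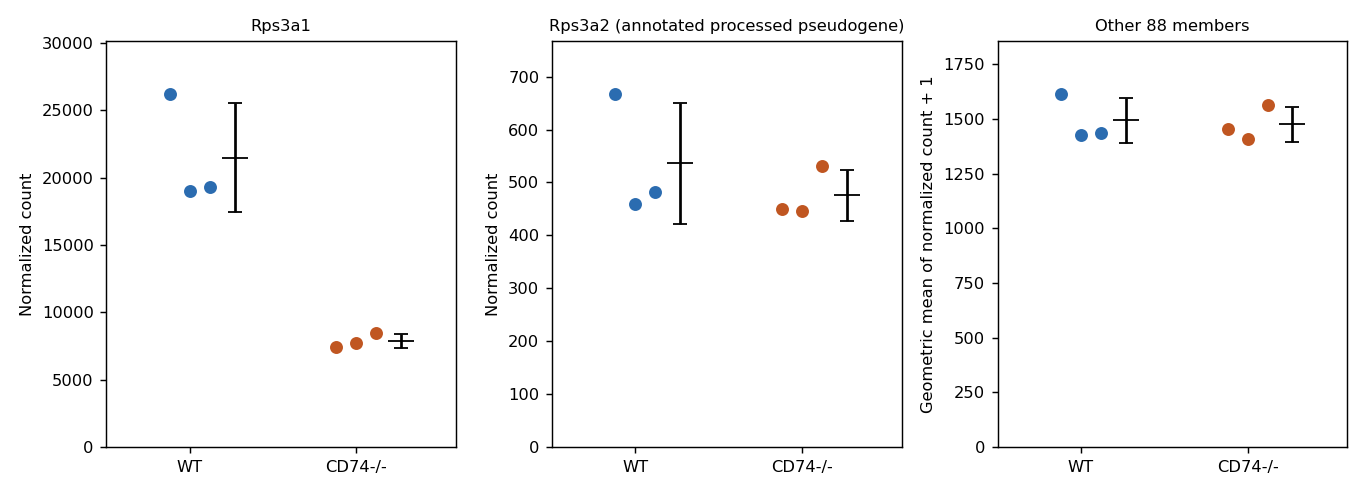
Normalized counts of Rps3a1 (left) and of its annotated pseudogene copy Rps3a2 (middle), and the geometric mean of normalized count + 1 of the other 88 members (right), in each of 3 WT (blue) and 3 CD74-/- (orange) libraries; the horizontal mark and bar are the mean and SD of a group, and every axis starts at 0. Rps3a1 runs from 7388 to 8426 in CD74-/- and from 18963 upwards in WT, while the groups overlap in the other panels.

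The copies of Rps3a1 did not follow it, in either direction. Rps3a2, which shares 570 words with Rps3a1, was at 667, 460 and 482 normalized counts in WT and at 450, 446 and 532 in CD74-/- libraries, with a log2 fold change of -0.16 (SE 0.291, interval -0.80 to 0.49). Its level was 2.49% ± 0.0617 of that of Rps3a1 in WT and 6.06% ± 0.271 in CD74-/- cells (SD, n = 3 each). Rps3a3 was at 44.95, 23.29 and 25.54 in WT and at 23.48, 32.44 and 39.96 in CD74-/- libraries. Of the predicted genes that share words with Rps3a1, Gm8960 was the highest, at 183, 154 and 149 against 190, 217 and 157. Gm13408, at 9.63, 10.8 and 2.84 against 12.7, 16.2 and 18.4, was the copy whose groups did not overlap, and it was higher in CD74-/-. Summed, the copies that share words were at 776 ± 157 in WT and 753 ± 45.3 in CD74-/- cells (SD, n = 3 each). Rps3a1 together with all of them was at 0.386 of the WT level in CD74-/- cells, and together with Rps3a2 and Rps3a3 alone at 0.379. How reads that match several places were counted is not given in the sources used here, and copies outside the table were not analysed here. The part of read placement in the level of Rps3a1 was not tested.

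Around Rps3a1, 10 genes with a start or end within 1 Mb were tested and 0 were called. Their log2 fold changes ran from -2.14 to 3.04. The nearby Lrba, a large gene for a vesicle trafficking protein, had a log2 fold change of -0.46 with overlapping groups. At an unadjusted p under 0.05 there were 2, Cd1d1 and Cd1d2, beside 7.74% of all genes tested.

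The other members differed little between the genotypes. Of the 89 members, 1 was called lower and 0 higher by limma. At an unadjusted p under 0.05 there were 2 of 89, Rps3a1 and Rpl7l1, which is 2.25% beside 7.74% of all genes tested. Groups did not overlap for 5 members, or 5.62%, beside 12.8% of all genes. Of these, 2 were lower (7.47% of all genes) and 3 higher (5.35%) in CD74-/- cells. The median log2 fold change was -0.05 over the members and -0.03 over all genes tested. Of the members, 50 had a value below 0, or 56.2% beside 52.3% of all genes, and 39 a value above 0, and 80 of 89 lay within 0.5 of 0.

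**Figure D2:**
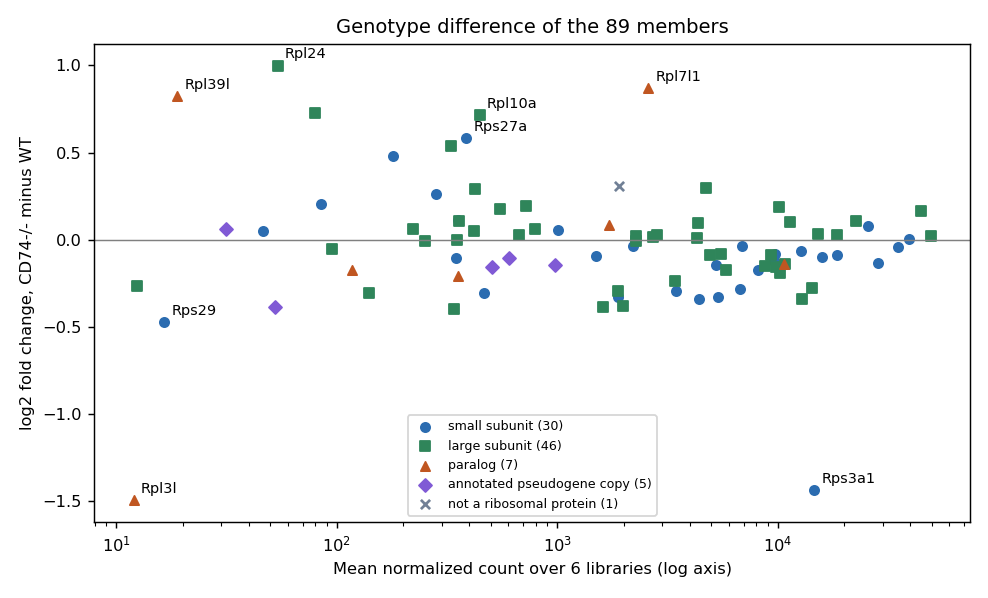
Log2 fold change of each of the 89 members (CD74-/- minus WT, limma on log2 of normalized count + 1) against its mean normalized count over 6 libraries on a log axis; colours and shapes mark small subunit, large subunit, paralog and annotated pseudogene members. Rps3a1 lies at -1.44 among the highly expressed members, which otherwise lie near 0, and the other values beyond 0.5 belong to members with lower counts or to Rpl7l1.

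Small subunit members other than Rps3a1 had geometric means of 2293 ± 276 in WT and 2192 ± 150 in CD74-/- cells (normalized count + 1, SD, n = 3 each). Rps27a, which is made as a fusion with ubiquitin, was at 246, 355 and 331 in WT and at 414, 560 and 420 in CD74-/- libraries. Its groups did not overlap, but the log2 fold change of 0.58 (SE 0.319, limma adjusted p = 0.688) missed the test. Rps27, a zinc-binding protein of the small subunit, was at 113, 194 and 147 against 212, 184 and 226, with overlapping groups. Only 1.35% of its words are its own. The largest negative values in this subunit after Rps3a1 were those of Rps29, at -0.47 with an SE of 1.12, and of Rps20, at -0.34 with an SE of 0.236. Of the members listed for the platform around Rps3a1, Rps3a1 was called, and Rps13, Rps26, Rps27, Rps28 and Rpsa had log2 fold changes between -0.33 and 0.48.

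Large subunit members had geometric means of 1822 ± 127 in WT and 1846 ± 36.6 in CD74-/- cells (normalized count + 1, SD, n = 3 each). Of the 46, 21 had a log2 fold change below 0 and 25 above 0, against 21 and 9 of the 30 of the small subunit; that difference in direction was not tested. Rpl24, which sits on the interface between the subunits, had the largest positive value of all members, from 40.67, 23.29 and 43.52 in WT to 91.96, 76.04 and 49.19 in CD74-/- libraries. The groups did not overlap, the log2 fold change was 1.00 (SE 0.633, limma adjusted p = 0.717), and the level is low. Rpl17, which lines the opening of the exit tunnel, was at 137, 155 and 173 against 127, 119 and 128, with a log2 fold change of -0.31 (SE 0.407). Rpl10a was at 245, 331 and 378 in WT and at 717, 745 and 253 in CD74-/- libraries, with CD74-/- 3 at the level of WT 1. Rpl13a and Rpl27a had log2 fold changes of -0.39 (SE 0.28) and -0.38 (SE 0.268), with overlapping groups. Rpl36a was at 63.1, 68.1 and 43.5 against 145, 98.4 and 60.5, and Rpl10, a protein added late in subunit assembly, had a log2 fold change of 0.54 (SE 0.363).

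The 5S RNP proteins and the P-stalk showed no difference beyond their spread. Rpl5 was at 231, 261 and 149 in WT and at 249, 315 and 129 in CD74-/- libraries, and Rpl11 at 276, 198 and 283 against 208, 251 and 290. The intervals of the log2 fold change were -0.94 to 1.06 for Rpl5 and -0.80 to 0.78 for Rpl11, so that changes within these intervals are not excluded. Of the stalk that recruits the elongation factors, Rplp0 was at 21739 ± 547 in WT and 23712 ± 4799 in CD74-/- cells (SD, n = 3 each). Rplp1 was at 19901, 12538 and 14499 against 10947, 10572 and 17529, with WT 1 and CD74-/- 3 high. Rplp2 and Rpl12 had log2 fold changes of -0.16 and 0.03.

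Among the paralogs, Rpl7l1, a relative of Rpl7 linked to ribosome assembly, varied most of those with a mean of at least 200. It was at 1156, 2059 and 2169 normalized counts in WT and at 3988, 4326 and 1832 in CD74-/- libraries. CD74-/- 1 and 2 stood above all WT libraries, while CD74-/- 3 lay among them. The log2 fold change was 0.87 (SE 0.363, limma adjusted p = 0.611). Rps27l, a p53 target in people and mice that resembles Rps27, was at 11189 ± 2685 against 10096 ± 1962, and Rpl22l1, the paralog of Rpl22, at 1651 ± 264 against 1779 ± 496 (SD, n = 3 each). Rpl22 itself was at 9639 ± 1894 against 9083 ± 2038. Rpl36al and Rps27rt had log2 fold changes of -0.21 and -0.17. Rpl3l, known from heart and skeletal muscle, was at 20.3, 8.96 and 9.46 against 31.3, 0 and 2.05, and Rpl39l, known from testis, at 0, 47.5 and 1.89 against 0, 14.2 and 50.2. Both had values of 0 in some libraries, so their log2 fold changes of -1.50 (SE 1.55) and 0.82 (SE 1.96) are poorly fixed.

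The annotated pseudogene copies were detected in every library. Rpl37rt was at 1014 ± 77.8 in WT and 945 ± 314 in CD74-/- cells and Rps4l at 611 ± 238 against 593 ± 273 (SD, n = 3 each). Rpl32l was at 32.1, 67.2 and 62.4 against 22.5, 24.3 and 107, with overlapping groups. Besides the members, 102 rows of the table are named as pseudogenes of ribosomal protein genes, 39 of them with a mean of at least 10, and 0 of these 39 were called. Rps19bp1 was at 1705 ± 175 against 2110 ± 230, with a log2 fold change of 0.31 (SE 0.214).

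The level per length spanned a wide range, although most, not all, of these proteins are held in equal numbers by a ribosome. Over the 76 small and large subunit members, the mean normalized count per kb of mRNA ran from 22.2 for Rpl23a to 95469 for Rpl32. Among the 8 highest were Rpl32 (95469 ± 12896), Rps9 (38042 ± 4071), Rpl4 (28898 ± 2798), Rplp1 (28719 ± 7502), Rps19 (25015 ± 2792) and Rpl41 (24645 ± 5024), each with the SD over 6 libraries. The ranges of Rpl32 and Rps9 and those of Rps9 and Rpl4 did not overlap, while those of Rpl4, Rplp1, Rps19 and Rpl41 each overlapped the next. Over the whole order of 89 members, 85 of 88 neighbouring pairs overlapped. The lowest were Rpl3l (8.74), Rpl23a (22.2), Rpl39l (34.5) and Rps3a3 (39.8).

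Many members that the ribosome cannot do without were read at low levels. Of the 76, 14 were under 500 normalized counts per kb, among them Rpl10, Rpl21, Rps23, Rps7, Rpl11, Rpl17, Rpl36a, Rpl28, Rpl5, Rpl24, Rps6, Rps29 and Rpl23a. Rps6, the substrate of the S6 kinases, was at 23.5, 44.8 and 62.4 normalized counts in WT and at 76.3, 54.8 and 17.4 in CD74-/- libraries. In these 14, the share of words found in no other gene had a median of 20.3%, beside 43.6% for the other subunit members. The share moved with the level over the 84 members with a coding sequence (Spearman's rho 0.42, a description across genes, which are not independent replicates and share libraries and annotation). Members with under 25% unique words had a median of 836 normalized counts per kb (28 genes), those with 25 to 60% had 3812 (31 genes) and those with 60% or more 11938 (25 genes). Rps18, at 22735 with 13.3% of unique words, and Rps29, at 42.3 with 64.2%, were far from this order. The part of read placement in these levels was not tested.

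**Figure D3:**
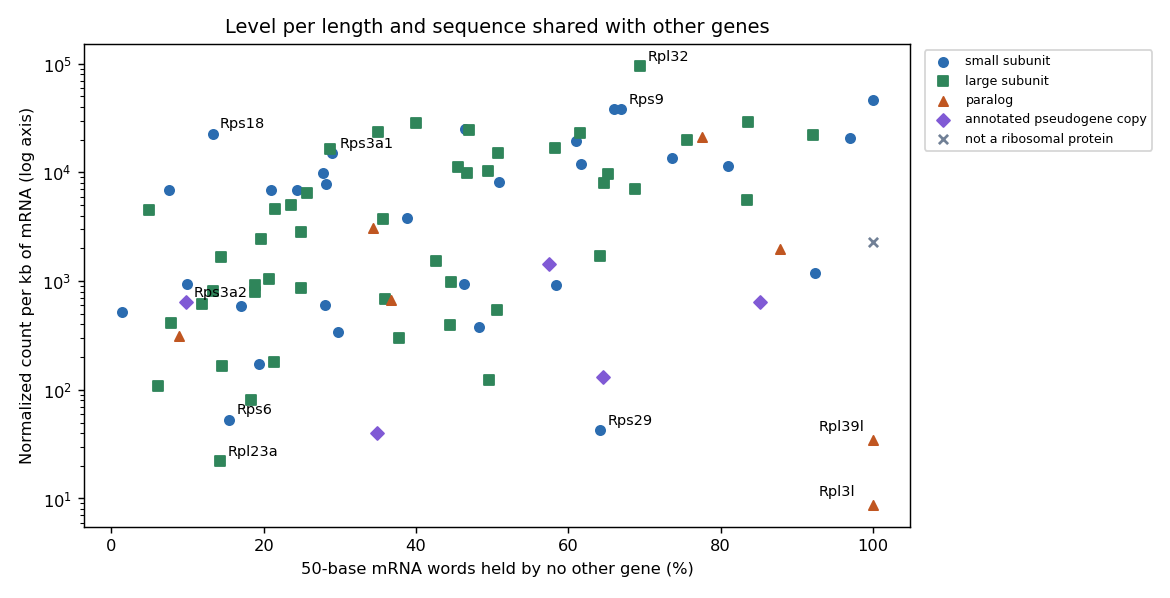
Mean normalized count per kb of mRNA over 6 libraries (log axis) against the share of 50-base mRNA words that no other annotated gene holds, for the 89 members, with classes in colours and shapes. Levels rise from left to right with wide scatter, from a median of 836 under 25% to 11938 at 60% or more, and Rps18 and Rps29 lie far from the trend.

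The summed level of the members overlapped between the genotypes. The 89 members summed to 670617, 545349 and 566109 normalized counts in WT and to 557595, 532279 and 616569 in CD74-/- libraries. WT 1 and CD74-/- 3 were the highest. As a share of all normalized counts this was 4.31%, 3.78% and 3.90% in WT and 3.52%, 3.32% and 4.18% in CD74-/- libraries. For the 75 members with a mean of at least 200, the highest library was 1.62 times the lowest in the median, and 61 of 75 stayed under a factor of 2.

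In WT 1 and in the CD74-/- libraries, the deviation of a member from its own mean went with its coding length, less so in WT 2 and hardly in WT 3. This was examined in 70 members with a mean of at least 200 and a coding sequence, without Rps3a1 and Rps19bp1. Spearman's rho between deviation and coding length was -0.56, 0.36 and -0.13 in WT 1 to 3 and 0.68, 0.69 and -0.74 in CD74-/- 1 to 3, as a description across genes that share libraries and normalization. In WT 1 and CD74-/- 3, the 25 members under 400 coding bases had median deviations of 0.43 and 0.30 on the log2 scale, and the 45 longer members 0.11 and -0.01. In CD74-/- 1 and 2 the medians were -0.21 and -0.35 for the short and 0.06 and -0.02 for the long members. The short members Rpl38 and Rps21 thus ran opposite to the long members Rpl10a and Rpl7l1. Rpl38 was at 506, 281 and 373 in WT and at 242, 241 and 398 in CD74-/- libraries, and Rps12, another short member, at 647, 360 and 500 against 233, 406 and 653. The CD74-/- libraries lay on both sides of this pattern, and Rpl7l1 and Rpl10a were high in CD74-/- 1 and 2 and not in CD74-/- 3. Over 8107 other genes with a mean of at least 200, rho with coding length had the opposite sign in 5 of the 6 libraries and was 0.16, 0.11 and 0.14 in WT and -0.31, -0.37 and 0.36 in CD74-/- libraries. The part of RNA quality or cDNA amplification in this pattern was not tested.

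**Figure D4:**
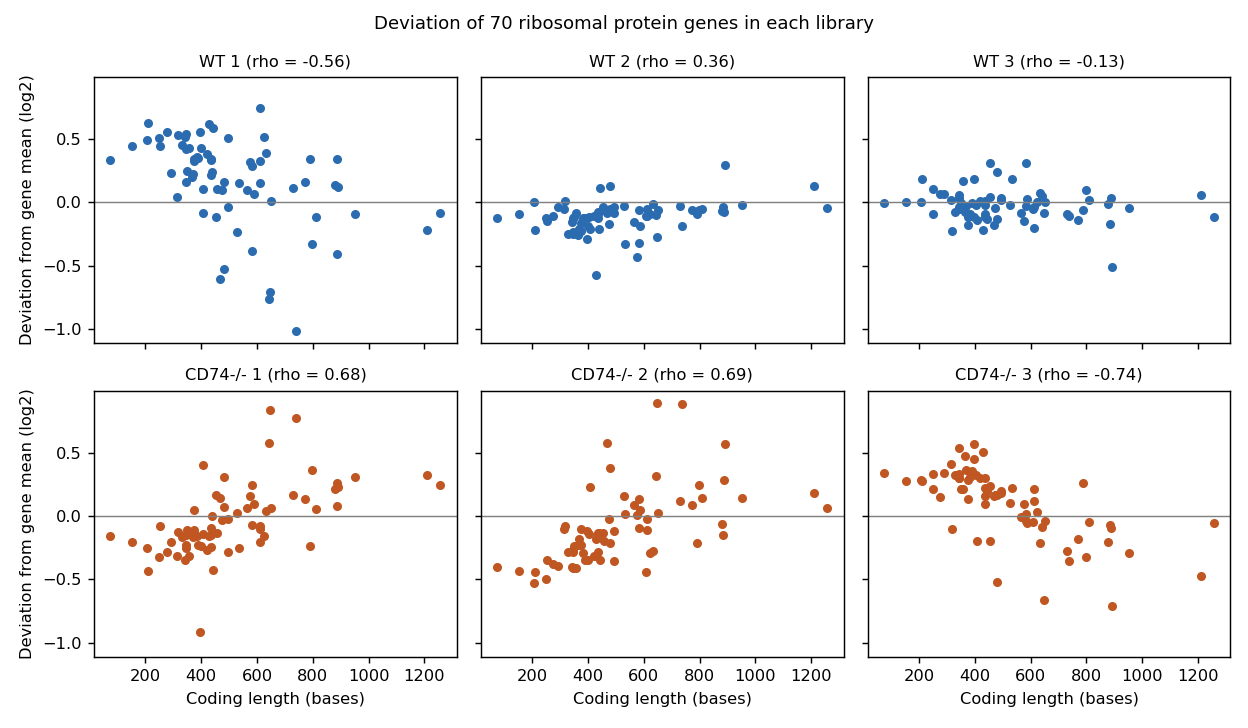
Deviation of 70 ribosomal protein genes from their own mean over 6 libraries (log2 of normalized count + 1) against coding length in bases, with 1 panel for each WT (blue) and CD74-/- (orange) library and Spearman's rho above it. The slope falls in WT 1 and CD74-/- 3, rises in CD74-/- 1 and 2, and is weak in WT 3, so that it does not separate the genotypes.

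The mitochondrial ribosomal protein genes, which build the ribosome inside mitochondria, gave a comparison. Of 78 tested, 0 were called, 59 had a log2 fold change above 0 and 19 below 0, and the median was 0.21, beside -0.05 for the cytosolic members. Their summed level was 166250, 157072 and 157429 in WT and 194100, 204770 and 152580 in CD74-/- libraries. CD74-/- 1 and 2 were thus above WT and CD74-/- 3 below it. Over 75 of them, the correlation of deviation with coding length (Spearman's rho) had the sign seen in the cytosolic members in CD74-/- 1, 2 and 3 (0.61, 0.56 and -0.59) and in WT 1 (-0.43). Groups did not overlap for 6 of the 78 (7.69%), all higher in CD74-/- cells, beside 12.8% of all genes tested in both directions and 5.35% higher. Among these 6, Mrpl47 was at 624, 1298 and 1062 against 1587, 1767 and 1610 (log2 fold change 0.80, limma adjusted p = 0.583).

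**Figure D5:**
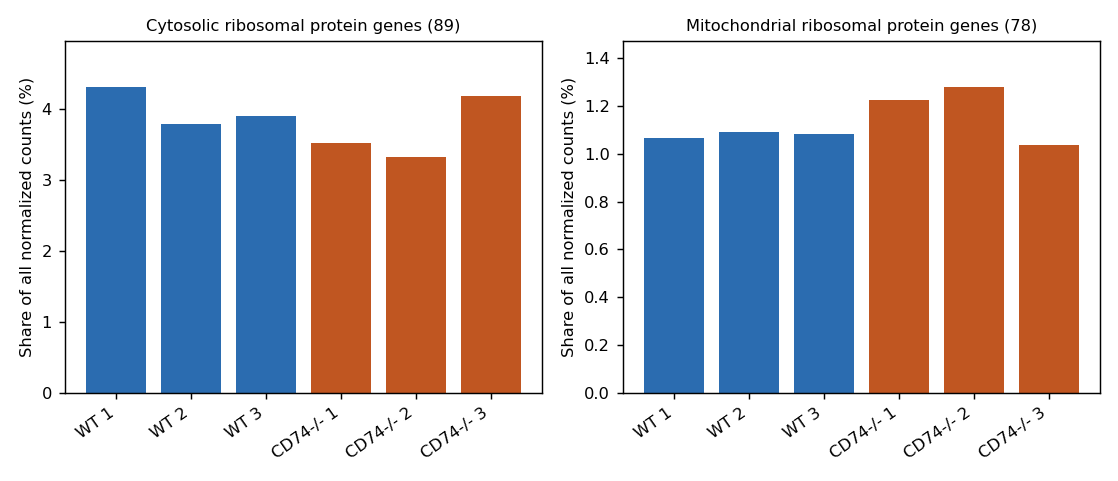
Share of all normalized counts, in percent, taken by the 89 cytosolic (left) and by 78 mitochondrial (right) ribosomal protein genes in each WT (blue) and CD74-/- (orange) library; bars start at 0. The cytosolic share is highest in WT 1 and CD74-/- 3, and the mitochondrial share is highest in CD74-/- 1 and 2.

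Genes around the ribosomal proteins in the same pathway were not called. Groups that do not overlap, named below for some of them, were found in 12.8% of all genes tested (7.47% lower and 5.35% higher in CD74-/- cells). Fau and Rack1, which encode ribosomal proteins under other names, had log2 fold changes of -0.49 and -0.16, and the groups of Fau did not overlap (64.2, 54.7 and 48.3 against 28.4, 44.6 and 47.1). Of 18 other 5' TOP mRNAs of translation, 0 were called and the median was -0.04. Eef2, the elongation factor that moves the ribosome along the mRNA, was at 11105, 9009 and 8418 in WT and at 7184, 4915 and 4926 in CD74-/- libraries, with every CD74-/- library lower (log2 fold change -0.76, limma adjusted p = 0.504). Eif3f and Eif4b, both initiation factors, were lower in every CD74-/- library with log2 fold changes of -0.30 and -0.39. In all, 3 of the 18, or 16.7%, had groups that did not overlap. Of 17 regulators of ribosomal protein genes and mRNAs tested, 0 were called, and groups did not overlap for 1 lower and 1 higher gene (11.8%). Myc, which drives their transcription, was at 3669, 3749 and 3668 against 5206, 3836 and 5706 (log2 fold change 0.39, limma adjusted p = 0.687), with groups that did not overlap, and Mycn had a value of -0.69 with overlapping groups. Larp1 and Mtor had values of -0.23 and 0.26. Of p53 and its targets 13 were tested and 0 called, with a median of 0.05; Cdkn1a was at 142, 58.2 and 96.5 against 143, 97.3 and 34.8, and Mdm2 at 1339, 1485 and 1408 against 1263, 1293 and 1386. The 15 genes mutated in Diamond-Blackfan anaemia that were listed, all members, had 0 calls and a median of -0.09, and Rps19, the gene mutated most often, was at 16373 ± 1775 in WT and 15296 ± 1947 in CD74-/- cells (SD, n = 3 each).

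Many markers of B cells, neutrophils, erythroid cells and monocytes had lower values in CD74-/- libraries, but only 2 erythroid markers passed the test. The counts below stand beside 7.74% of all genes at an unadjusted p under 0.05 and 0.0873% called. Of 10 B cell markers, 9 were lower at an unadjusted p under 0.05 and 0 were called, and their sum was 3265 to 10729 in WT and 1280 to 3293 in CD74-/- libraries. Among them, Cd79a, Igll1, Ms4a1, Pax5 and Vpreb3 were at 0 in at least 1 library. Of 11 neutrophil markers, 9 were lower at an unadjusted p under 0.05 and 0 were called, with sums of 163536 to 980081 in WT and 37675 to 152178 in CD74-/- libraries, and WT 1 was the highest. Of 10 erythroid markers 9 were tested, 6 were lower at an unadjusted p under 0.05 and 2 were called lower, with sums of 38997 to 58470 against 25159 to 39182. Of 8 monocyte markers, 4 were lower at an unadjusted p under 0.05 and 0 were called, with sums of 29303 to 50482 against 9454 to 38993. Median log2 fold changes were -4.72, -2.58, -1.99 and -2.60 for B cell, neutrophil, erythroid and monocyte markers, beside -0.03 for all genes tested. In the same order, 7 of 10, 5 of 11, 6 of 9 and 3 of 8 were lower without overlap, beside 7.47% of all genes. Among the monocyte markers, 1 was higher without overlap. Of 5 dendritic, 3 T and NK cell and 5 megakaryocyte markers tested, 0 were called, and at an unadjusted p under 0.05 there were 1, 0 and 1, all lower. The part of all these cells in the level of Rps3a1 was not tested. Scaled to the other members, whose geometric mean overlapped between the groups, the log2 fold change of Rps3a1 was -1.42, beside -1.44 unscaled. This scaling cannot tell fewer cells of a type from less RNA per cell. Without WT 1, the log2 fold change of Rps3a1 was -1.29 (limma adjusted p = 0.19).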

How the data were processed

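RNA of CD34-/LSK cells sorted from 3 WT and 3 CD74-/- C57BL/6 mice was turned into SMART-Seq v4 libraries, which cover whole transcripts and do not keep the strand, and read single-end on a HiSeq2500. The authors used cutadapt to remove adapters and runs of A or T, dropped reads shorter than 30 bases, aligned the rest end to end to GRCm38 with STAR (version 2.4.2a in the submitters' processing notes), using the annotation of Ensembl release 92, and took gene counts from htseq-count, which were scaled by the size factors of DESeq2. The deposited signal is this normalized count, rounded to 2 decimals. Each library has a step of which 100% of its values above 0 (101059 in all) are whole multiples, within 0.006 normalized counts, so that whole reads were recovered. Depth was 14390534 to 16198678 reads in genes per library. A second sheet, which lists the authors' thresholds, was not used. Some genes of this family and of the lists are not reported here.

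The main test was limma, with its trend option on values of log2(normalized count + 1), for 14892 genes whose mean was 10 or more. Benjamini-Hochberg adjustment ran over all of them, with an adjusted p under 0.05 as the threshold. Fold changes are on that log2 scale and can differ in either direction from the ratio of the group means in low genes. For Rpl3l that ratio was 0.861, beside a log2 fold change of -1.50. The p-values measure the spread between these libraries. Level per length used the shortest coding transcript of GENCODE vM21 with the principal coding length; 50-base words were compared with all its transcripts on either strand. Alternatives were pseudocounts of 0.5 and 5, other filters, other scalings, a block for the replicate number, fits that leave out 1 library, and edgeR, DESeq2 (with the study's settings) and limma-voom on the recovered reads, on which edgeR called 12 and DESeq2 148 genes. Scripts were tested on simulated data. Members, lists and tests were chosen with earlier results of these data known. Named genes were Rps3a1 with its copies, called members, the largest changes, the highest and lowest levels, paralogs, 5S RNP and P-stalk members, and up to 4 genes of each other list; the choice of Rps12, Rps21, Rpl22, Cd1d1 and Cd1d2 followed a look at their values. Overlapping genes cannot be told apart without strand. Python 3.11.15 was used with biopython 1.88, matplotlib 3.10.9, scipy 1.17.1, pandas 2.3.3 and numpy 2.4.6, and R 4.3.3 with DESeq2 1.42.0, edgeR 4.0.16 and limma 3.58.1.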

Additional observations from a re-analysis of the deposited data

How the results depend on the processing

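The direction of Rps3a1 was the same in all 16 alternatives, and its adjusted p stayed under the threshold in 11 of them, among them limma with a replicate block (log2 fold change -1.44, adjusted p = 0.0448), edgeR on the recovered reads (-1.43, adjusted p = 0.0487) and DESeq2 on the recovered reads (-1.45, adjusted p = 5.1e-08). With 1 library left out, the log2 fold change of Rps3a1 was -1.52 to -1.29 and its adjusted p 0.0334 to 0.24, and the number of members called was 0 to 1; fewer libraries enter these fits, and only without CD74-/- 3 was it still called. Relative to the other members, the log2 fold change was -1.47 to -1.33 with 1 library left out (adjusted p 0.0274 to 0.289) and -1.42 with a replicate block (adjusted p = 0.08); the cause was not tested. Deviations of same-numbered libraries correlated weakly over all genes tested (r = 0.116, 0.0716 and 0.0194 for numbers 1 to 3). Pairs with different numbers had r of -0.111 to 0.0534, and CD74-/- 3 correlated no better with WT 3 than CD74-/- 2 did. Whether same-numbered libraries share more than a number was not tested. The number of genes called in all was 13 with limma, 27 with the replicate block, 148 with DESeq2, 6 with limma-voom and 7 to 33 with 1 library left out, and no member other than Rps3a1 was called in any of these. The median log2 fold change of the members was -0.13 to 0.04 and the log2 ratio of their summed level -0.12 to 0.03, both changing sign without WT 1 and both within the spread between replicates. By coding length in place of mRNA length, 5 of the 8 highest members in WT were the same. Low counts that vary widely between libraries, at 0 to 32 reads for Rpl3l and 0 to 53 for Rpl39l, limit the fold changes of these genes. For the summed level, changes of filter, pseudocount or test on reads gave no further value.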

Other observations

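Cd1d1 and Cd1d2, neighbouring genes on chromosome 3, were noticed among the genes within 1 Mb of Rps3a1 after their values had been seen. Cd1d2 was at 12.8, 84.2 and 47.3 normalized counts in WT and at 262, 587 and 203 in CD74-/- libraries (log2 fold change 3.04, limma adjusted p = 0.331). Cd1d1 was at 1249, 1744 and 1128 in WT and at 1985, 2533 and 2335 in CD74-/- libraries (log2 fold change 0.75, limma adjusted p = 0.525). In both genes every CD74-/- library was above every WT library, as in 5.35% of all genes tested. Of the 10 genes within 1 Mb of Rps3a1, 3 had groups that did not overlap, beside 12.8% of all genes tested. Their sequences resemble each other, and how reads shared between them were counted is not given in the sources used here.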
